A study of Mus musculus with 12 samples.

Results

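The unfolded protein response genes described here were 10 of the 17379 genes measured in hearts of mice aged 6 months: Herpud1, Hspa5, Dnajb9, Sdf2l1, Manf, Creld2, Xbp1, Atf4, Ddit3 and Calr. They were chosen by symbol, because Herpud1 had the smallest p-value of all genes between HRC variant and nontransgenic hearts, and the other 9 belong to the same pathway. Values from that comparison are therefore given as a description without a test. The study asked how an HRC variant and a MYBPC3 deletion act on the heart alone and together. It sequenced mRNA from 12 heart samples, 3 per group.

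Compound mice were heterozygous for the S96A variant of HRC and homozygous for a 25 bp deletion in MYBPC3. All 3 compound samples were female. MYBPC3 deletion mice were homozygous for the deletion alone, with 2 male samples and 1 female sample. HRC variant mice were heterozygous for S96A alone, and all 3 samples were female. Nontransgenic mice, labelled C57BL/WT, gave 2 male samples and 1 female sample. The labels call the altered mice transgenic, and the promoter behind each alteration, the number of founder lines and the hour of dissection are not given here. Sex and the HRC variant are thus partly confounded, since no male carried the variant. The labels number the samples of a group but do not tie each to its own mouse in more detail, and p-values cover only the spread among these libraries, which may be technical.

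The unfolded protein response is the program by which a cell answers misfolded protein in the endoplasmic reticulum. Its sensors are IRE1, which splices Xbp1 mRNA, PERK, which slows translation and lets ATF4 be made, and ATF6, which is cut in the Golgi to free a transcription factor. Together these factors raise chaperones, degradation machinery and, under lasting stress, Ddit3. In heart muscle the endoplasmic reticulum is continuous with the sarcoplasmic reticulum, the calcium store in whose lumen the HRC protein and the calcium-binding chaperone calreticulin reside. A gene-level count does not separate spliced from unspliced Xbp1 mRNA, and sensor activity was not measured.

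Total expected counts ranged from 15615182 to 20581197 per library. Markers of heart muscle were abundant in each group, with summed levels of 10 cardiomyocyte genes between 85026 and 117090 CPM (counts per 1e+06 counts, scaled by trimmed mean of M values). Atrial markers varied widely: the summed CPM of 9 atrial genes lay between 839.5 and 1381 in compound libraries, 4808 and 8269 in MYBPC3 deletion libraries, 1058 and 11561 in HRC variant libraries and 4847 and 12113 in nontransgenic libraries. No atrial marker was at 0 in all 3 libraries of a group. Single values were low, such as Sln at 0.337 CPM in compound replicate 2 and 0.388 CPM in HRC variant replicate 3. In MYBPC3 deletion replicate 2 and nontransgenic replicate 2, summed markers of B and plasma cells reached 135 and 92.2 CPM, against 5.09 to 15.4 CPM in the other libraries. Plasma cells secrete antibody and use the IRE1 and XBP1 branch of the response for it. In a bulk sample, fewer cells of a type and less RNA per cell cannot be told apart.

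The promoters of 4 members are shown because they hold the full motif by which the response is classically read out. The endoplasmic reticulum stress element (ERSE, which is CCAAT, any 9 bases and CCACG) is bound by ATF6 with NF-Y, and ERSE-II (ATTGG, any 1 base and CCACG) was defined in the human HERPUD1 promoter. Each window is the 170 bases before the gene start in the RefSeq table of build GRCm38.p6, read 5′ to 3′ on the strand of the gene, with the match in capitals. Herpud1 lies at chr8:94386259-94386428 on the plus strand, Hspa5 at chr2:34771920-34772089 on the plus strand, Creld2 at chr15:88819476-88819645 on the plus strand and Calr at chr8:84846932-84847101 on the minus strand.
Herpud1: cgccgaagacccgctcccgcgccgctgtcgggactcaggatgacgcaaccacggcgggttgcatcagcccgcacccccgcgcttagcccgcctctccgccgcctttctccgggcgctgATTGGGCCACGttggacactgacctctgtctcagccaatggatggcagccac
Hspa5: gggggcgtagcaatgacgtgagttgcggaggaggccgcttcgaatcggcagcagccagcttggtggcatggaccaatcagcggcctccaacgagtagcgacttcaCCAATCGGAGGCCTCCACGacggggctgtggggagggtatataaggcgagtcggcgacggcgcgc
Creld2: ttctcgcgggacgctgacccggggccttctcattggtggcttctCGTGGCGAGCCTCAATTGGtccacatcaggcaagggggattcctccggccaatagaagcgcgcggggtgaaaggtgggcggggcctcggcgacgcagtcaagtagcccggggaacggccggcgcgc
Calr: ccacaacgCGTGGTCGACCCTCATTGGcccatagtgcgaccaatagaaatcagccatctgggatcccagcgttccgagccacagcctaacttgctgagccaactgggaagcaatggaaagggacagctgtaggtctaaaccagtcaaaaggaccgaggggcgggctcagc

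The RefSeq table held a promoter for 9 of the 10 members, all but Manf, and the 250 bases before each gene start were searched on both strands. ERSE was found in 3 of these 9 promoters, Hspa5, Creld2 and Calr, and in 37 of all 32851 promoters (0.113%). In Hspa5 it lay 65 to 47 bases before the start on the strand of the gene. In Creld2 it lay 126 to 108 bases before the start and in Calr 162 to 144, in both on the opposite strand, where it reads CGTGG, any 9 bases and ATTGG. ERSE-II was found in Herpud1 alone among the 9 members, 52 to 42 bases before the start, and in 10 of all promoters (0.0304%). The motifs share letters, since ERSE and ERSE-II both contain CCACG and a CCAAT box on either strand. The short half-site CCACG occurred in 7 of the 9 member promoters and in 28.3% of all, and CCAAT in 8 of the 9 and in 33.8% of all. The ATF6 and XBP1 element TGACGTGG (185 promoters, 0.563%) and the XBP1 core ACGTGTC (374, 1.14%) were not in any of the 9 windows. The letters TGATGNAAT (268, 0.816%), searched for the ATF4 element, were not in them either. In the Herpud1 window, gttgcatca fits those letters on the opposite strand except at the last base, where the search required T. Forms of the ATF4 element with another last base were not searched, so its absence is not shown. These matches describe letters and not binding. The deposited table starts Herpud1 upstream, at 94379184, so its promoter here is that of the RefSeq start alone.

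All 10 members passed the filter on low counts, and their levels were ordered by TPM (transcripts per 1e+06 transcripts), a deposited scale that corrects for transcript length. Calr was highest at 358 ± 39.7 TPM, Hspa5 reached 336 ± 62.9 and Herpud1 309.9 ± 102 (SD over the 12 libraries). The ranges of these 3 genes overlapped, and the next gene, Atf4, lay below all of them at 94.4 ± 8.25 TPM. Xbp1 had 83.4 ± 9.93 TPM, overlapping Atf4. Below a further gap came Dnajb9 at 49.4 ± 9.49, Manf at 37.97 ± 4.90, Ddit3 at 29.3 ± 5.17, Creld2 at 15.3 ± 2.23 and Sdf2l1 at 9.87 ± 2.06 TPM, each overlapping the next. Over the 12 libraries Herpud1 had the highest coefficient of variation in CPM among the members, 28.2%, above 73.4% of all genes tested. Calr had the lowest, 9.38%, above 8.91% of all genes.

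Herpud1 (gene 64209, chr8:94379184-94395366, plus strand) encodes an endoplasmic reticulum membrane protein that helps assemble the complex for degradation of misfolded proteins. It had 294, 271 and 388 CPM in compound libraries, 286, 254 and 427 CPM in MYBPC3 deletion libraries, 293, 261 and 299 CPM in HRC variant libraries and 335, 364 and 589 CPM in nontransgenic libraries. The 3 HRC variant libraries lay below all 3 nontransgenic libraries, whereas the compound and MYBPC3 deletion libraries spanned both. The single female of the nontransgenic group had the highest value of all 12 libraries, and the single female of the MYBPC3 deletion group the next highest. On the TPM scale the HRC variant libraries had 266, 264 and 271, against 241, 353 and 562 in nontransgenic libraries, so that the groups overlapped through nontransgenic replicate 1.

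With sex as a term, the fitted log2 difference of Herpud1 between HRC variant and nontransgenic hearts was -1.02 (SE 0.17), a fold of 0.492. Between compound and nontransgenic hearts it was -0.86 (SE 0.17), and between MYBPC3 deletion and nontransgenic hearts -0.40 (SE 0.14). These comparisons share the nontransgenic libraries that chose the gene, so no test is given. The same fit put Herpud1 0.71 (SE 0.15) higher on the log2 scale in females than in males, an estimate from the MYBPC3 deletion and nontransgenic groups, which held both sexes. In both groups the only female was replicate 3, so sex and replicate 3 cannot be told apart there. Replicate 3 was also the highest compound library, at 388 against 294 and 271 CPM, in a group that was all female. Without the sex term the difference was -0.60 (SE 0.24) between HRC variant and nontransgenic hearts and -0.44 (SE 0.24) between compound and nontransgenic hearts. Among females alone, where the nontransgenic group is 1 library, the values were -1.05 and -0.89. Without that library, nontransgenic replicate 3, the fit with the sex term gave -0.95 (SE 0.29) between HRC variant and nontransgenic hearts.

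The comparison of compound with MYBPC3 deletion hearts used neither group of the rule and asks what the HRC variant adds on the deletion background. Here Herpud1 was lower by a fitted log2 difference of -0.46 (SE 0.18), with an unadjusted p of 0.0218 and an adjusted p of 0.862 by edgeR's quasi-likelihood test, so it was not called. The sex term behind this value was partly estimated in nontransgenic libraries. A fit of the compound and MYBPC3 deletion libraries alone gave -0.43 (SE 0.20; edgeR adjusted p = 0.712). The 3 compound values, at 294, 271 and 388 CPM, lay within the range of the deletion values, 286, 254 and 427 CPM, and without the sex term the difference was -0.02 (SE 0.24). Without compound replicate 3 it was -0.63 (SE 0.17). Atrial and fibroblast markers also differed between these groups without overlap, at 839.5 to 1381 against 4808 to 8269 CPM and at 1388 to 1631 against 2192 to 2372 CPM in compound and MYBPC3 deletion libraries, and their part in the Herpud1 value was not tested. The plot of Herpud1 under each setting shows this dependence.

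**Figure D1:**
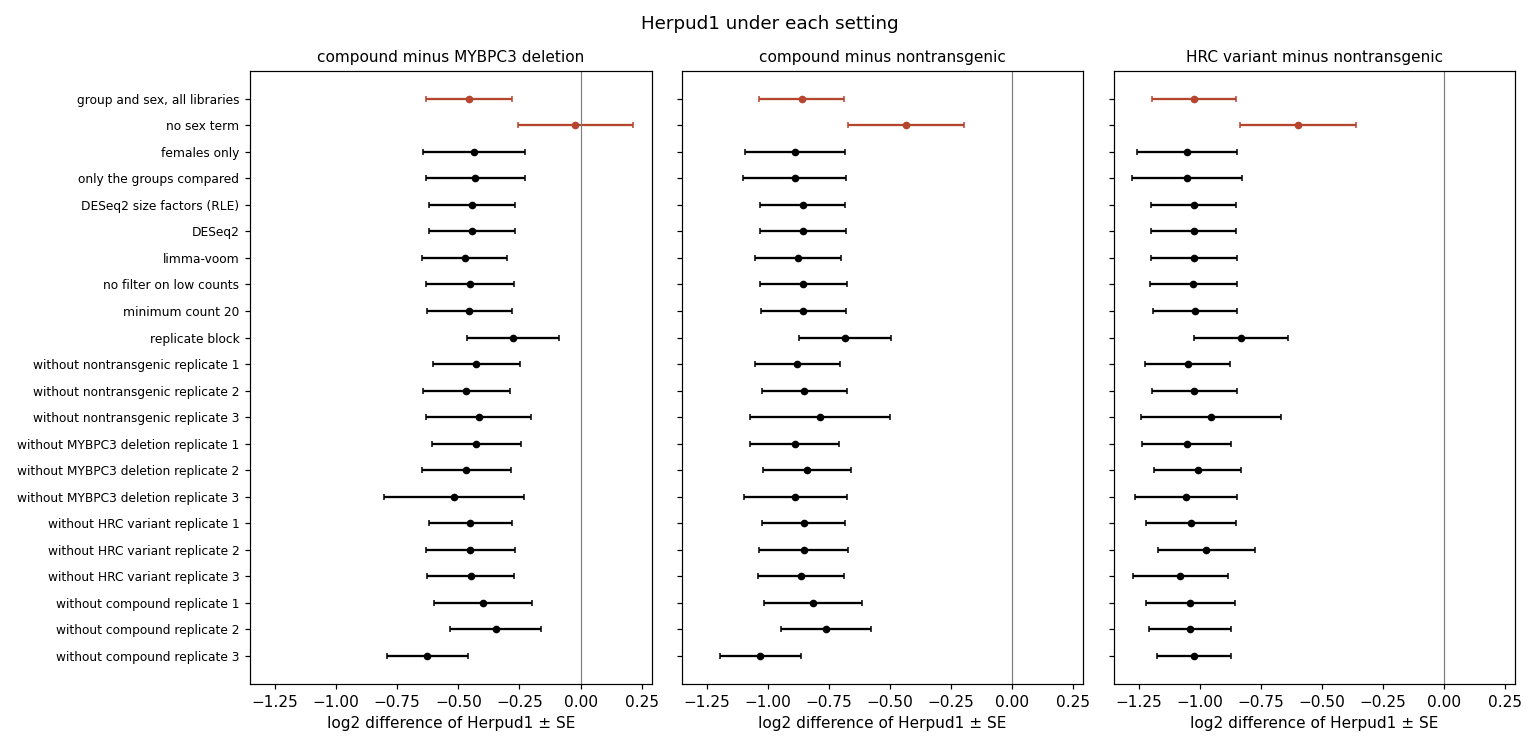
Fitted log2 difference of Herpud1 (x axis, with SE as bars) under each processing setting (rows), in a panel per comparison. The fits with and without a sex term are drawn in red: between compound and MYBPC3 deletion hearts they stand at -0.46 and -0.02, and between HRC variant and nontransgenic hearts at -1.02 and -0.60.

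Hspa5 (gene 14828, chr2:34772090-34776529) encodes BiP, the main chaperone of the endoplasmic reticulum, which also holds the sensors inactive. It had 528, 605 and 474 CPM in compound libraries, 470, 390.3 and 459 CPM in MYBPC3 deletion libraries, 430.3, 575 and 586 CPM in HRC variant libraries and 537, 408 and 547 CPM in nontransgenic libraries. All 3 compound values lay above all 3 deletion values, by as little as 474 against 470 CPM, while every other pair of groups overlapped. In TPM the compound and deletion groups overlapped too, with 332 the lowest compound and 335 the highest deletion value. The fitted log2 difference between compound and MYBPC3 deletion hearts was 0.18 (SE 0.20; edgeR adjusted p = 0.969).

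Calr (gene 12317, chr8:84842088-84846931) encodes calreticulin, a lectin chaperone that buffers calcium. It had 428, 423 and 369 CPM in compound libraries, 382, 393 and 423 CPM in MYBPC3 deletion libraries, 390.2, 371 and 362 CPM in HRC variant libraries and 492, 408 and 452 CPM in nontransgenic libraries. The HRC variant libraries lay below the nontransgenic ones, and the other pairs of groups overlapped. In TPM the HRC variant and nontransgenic groups overlapped too, with 365 the highest HRC variant and 344 the lowest nontransgenic value. With Herpud1, Calr was 1 of 2 members whose HRC variant values all lay below the nontransgenic values in CPM, against 3.76% of all genes in that direction and comparison. In CPM 0 members had all values above (4.18% of all genes), whereas in TPM Xbp1 did. Nothing is read from these counts, since this contrast chose the members. The fitted log2 difference of Calr there was -0.31 (SE 0.15), and between compound and MYBPC3 deletion hearts it was -0.02 (SE 0.15).

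Dnajb9, which encodes the BiP co-chaperone ERdj4, and Sdf2l1, which encodes a partner of ERdj3 in the BiP cycle, completed the chaperones. Dnajb9 had 53.2, 58.1 and 56.5 CPM in compound libraries, 55.1, 50.2 and 61.1 CPM in MYBPC3 deletion libraries, 40.5, 58.2 and 55.5 CPM in HRC variant libraries and 41.5, 53.0 and 56.5 CPM in nontransgenic libraries. HRC variant replicate 1 and nontransgenic replicate 1 were the low libraries, and all groups overlapped. Sdf2l1, the least abundant member, had 4.08 to 8.19 CPM in compound, 5.47 to 6.38 in MYBPC3 deletion, 5.60 to 8.10 in HRC variant and 5.16 to 6.61 CPM in nontransgenic libraries. These groups overlapped as well, and the fitted log2 difference between compound and MYBPC3 deletion hearts was -0.14 (SE 0.18) for Dnajb9 and 0.31 (SE 0.32) for Sdf2l1.

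Manf and Creld2 encode proteins of the endoplasmic reticulum that are induced by its stress and can be secreted. Creld2 (gene 76737, chr15:88819646-88826681) had 9.84, 11.6 and 7.21 CPM in compound libraries, 12.9, 15.5 and 12.5 CPM in MYBPC3 deletion libraries, 12.7, 11.7 and 14.04 CPM in HRC variant libraries and 16.3, 10.6 and 10.7 CPM in nontransgenic libraries. The compound values lay below all values of both single alterations and overlapped the nontransgenic ones. Its fitted log2 difference was -0.34 (SE 0.25; edgeR adjusted p = 0.930) between compound and MYBPC3 deletion hearts, and -0.42 (SE 0.21) between compound and HRC variant hearts. Manf had 44.1, 58.5 and 37.4 CPM in compound libraries, 50.7, 54.6 and 40.8 CPM in MYBPC3 deletion libraries, 47.7, 45.1 and 58.1 CPM in HRC variant libraries and 72.1, 40.3 and 48.2 CPM in nontransgenic libraries. In CPM, nontransgenic replicate 1 was the highest library for Manf, for Creld2 and for Atf4, Ddit3 and Calr, and the groups overlapped for Manf. In TPM other libraries were highest for each of these genes, such as compound replicate 2 for Manf (45.8 against 44.2 TPM).

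Among the transcription factors, Xbp1 (gene 22433, chr11:5520641-5525993), the substrate of IRE1, had 105, 115 and 79.7 CPM in compound libraries, 115, 123 and 103 CPM in MYBPC3 deletion libraries, 126, 115.3 and 122 CPM in HRC variant libraries and 117, 104 and 99.98 CPM in nontransgenic libraries. The compound values all lay below the HRC variant values, the closest being 115.1 against 115.3 CPM, and the fitted log2 difference there was -0.28 (SE 0.13). Between compound and MYBPC3 deletion hearts, where the values overlapped, it was -0.06 (SE 0.16; edgeR adjusted p = 0.988). In TPM the HRC variant libraries, at 93.0 to 97.5, lay above all others, with nontransgenic libraries at 70.6 to 84.2. This is a description, since that contrast chose the members.

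Atf4, the factor made downstream of PERK, had 76.6, 88.2 and 85.4 CPM in compound libraries, 91.6, 120 and 83.9 CPM in MYBPC3 deletion libraries, 109, 77.6 and 93.5 CPM in HRC variant libraries and 121, 80.8 and 87.8 CPM in nontransgenic libraries. Ddit3, which encodes CHOP, the factor tied to cell death under lasting stress, had 8.13, 14.1 and 14.99 CPM in compound libraries, 16.5, 20.4 and 14.6 CPM in MYBPC3 deletion libraries, 14.4, 13.5 and 18.0 CPM in HRC variant libraries and 21.3, 13.97 and 11.7 CPM in nontransgenic libraries. For both genes the groups overlapped in CPM, with MYBPC3 deletion replicate 2 and nontransgenic replicate 1 the highest libraries. In TPM the compound values of both genes lay below all MYBPC3 deletion values. The closest were 92.9 against 93.9 TPM for Atf4 and 30.7 against 30.8 TPM for Ddit3. The fitted log2 difference between compound and MYBPC3 deletion hearts was -0.05 (SE 0.21) for Atf4 and -0.15 (SE 0.28) for Ddit3. The plot of CPM in each library shows these values side by side.

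**Figure D2:**
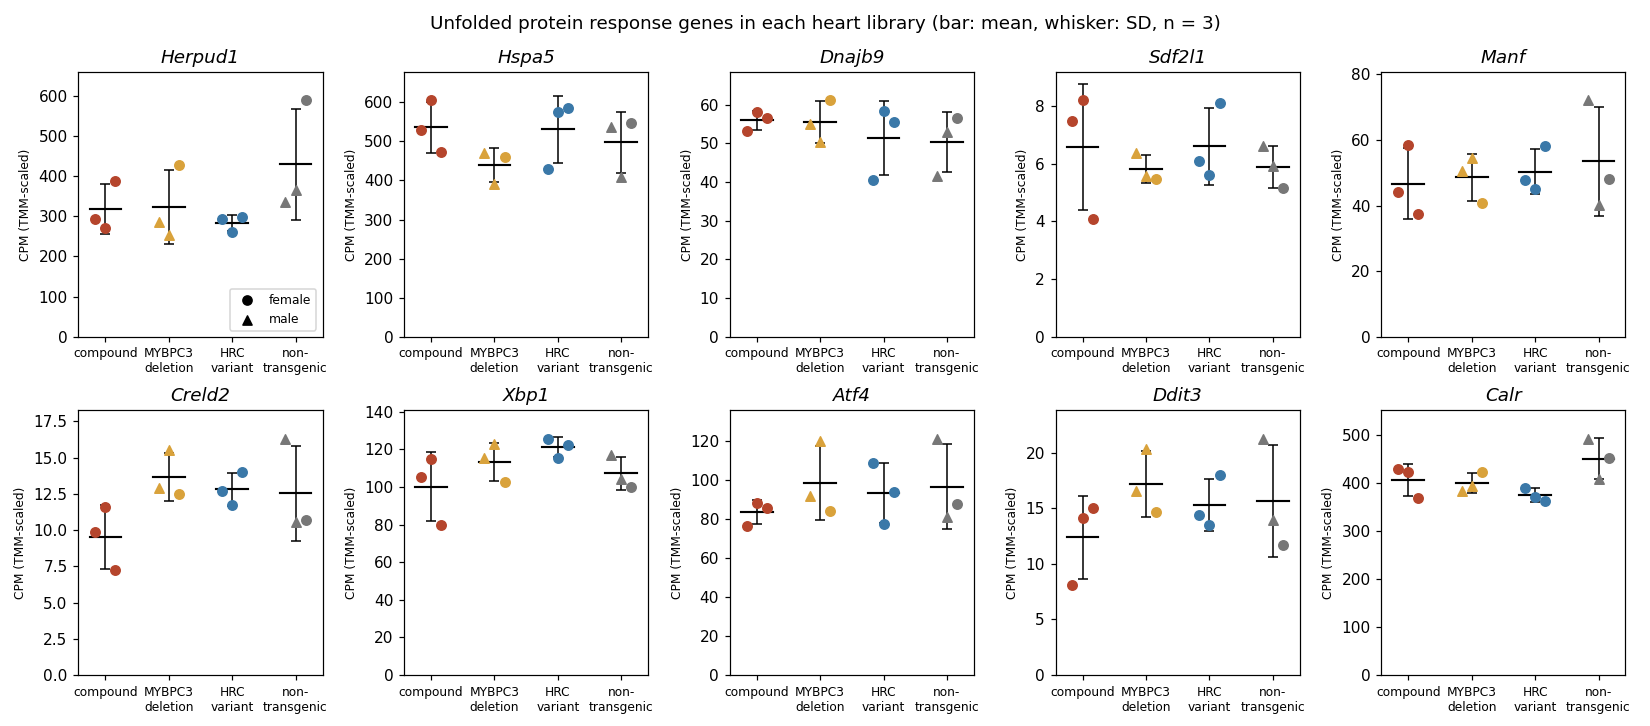
CPM (y axis, from 0) of each gene in every library, in a panel per gene, with compound, MYBPC3 deletion, HRC variant and nontransgenic hearts from left to right; bars are means, whiskers the SD of 3 libraries and points the libraries, marked by sex. Herpud1 averaged 318 in compound, 322 in MYBPC3 deletion, 284 in HRC variant and 429 CPM in nontransgenic hearts, with the nontransgenic female at 589.

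Between compound and MYBPC3 deletion hearts edgeR called 0 of the 10 members, where it called 0% of the 13849 genes tested. At an unadjusted p under 0.05, 1 member (Herpud1) and 794 genes (5.73%) passed. DESeq2 called 6 genes (0.0433%) and limma-voom 0 genes, and none of these was a member. In CPM, Hspa5 was the 1 member whose compound values all lay above the deletion values, where 11.5% of all genes did so. Creld2 was the 1 member with all CPM values below, where 13.7% did so. Thus 10 members gave 2 without overlap in CPM, close to the share among all genes. In TPM, Creld2, Atf4 and Ddit3 lay entirely lower and Hspa5 overlapped, and the share of all genes was not counted on that scale. The median fitted log2 difference was -0.05 over the 10 members and 0.01 over all genes tested.

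The authors' deposited table gave q-values from DESeq2 for the same pair of groups, in which 716 of 16882 genes (4.24%) lay under 0.05 but 0 of the 10 members. In the authors' deposited table the log2 fold change of Herpud1 was -0.0038 between compound and MYBPC3 deletion hearts (q-value 0.996). It was -0.43 between compound and nontransgenic hearts and -0.41 between MYBPC3 deletion and nontransgenic hearts in the authors' deposited table. No q-value is given for those comparisons, which share the nontransgenic libraries that chose the gene. These values lie next to those of the fit without a sex term.

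Between MYBPC3 deletion and nontransgenic hearts, 9 members were tested and edgeR called 0, where it called 0% of all genes. None of the 9 reached an unadjusted p under 0.05, which 1130 genes (8.16%) did, and DESeq2 called 92 genes (0.963%), none a member. The log2 differences of the 9 ran from -0.18 (Hspa5 and Calr) to 0.15 (Ddit3), and the smallest edgeR adjusted p was 0.761, for Calr (-0.18, SE 0.12). No member's groups failed to overlap, where 4.9% of all genes lay entirely higher and 5.5% entirely lower. In the authors' deposited table, 0 of these 9 members and 0.0945% of genes had a q-value under 0.05.

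Between compound and nontransgenic hearts, edgeR likewise called 0 of 9 members and 0% of all genes, and none of the 9 reached an unadjusted p under 0.05, against 881 genes (6.36%). DESeq2 called 38 genes (0.275%), none a member. The 9 differences lay between -0.21 (Creld2, SE 0.25) and 0.30 (Sdf2l1, SE 0.32), with the smallest edgeR adjusted p, 0.929, for Calr (-0.19, SE 0.15). The groups of every member overlapped, where 8.79% of all genes lay entirely higher and 10% entirely lower. In the authors' deposited table, 0 of these 9 members and 2.43% of genes had a q-value under 0.05.

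The comparison that chose the members gave no shared direction. Between HRC variant and nontransgenic hearts, 6 of the 10 fitted log2 differences were above 0 and 4 below, with a median of 0.12, against 0.00 over all genes. Apart from Herpud1, 8 of the 9 lay within 2 SE of 0, from -0.12 (Dnajb9, SE 0.18) to 0.30 (Sdf2l1, SE 0.32, Xbp1, SE 0.16, and Ddit3, SE 0.29), the exception being Calr. Between compound and HRC variant hearts, Creld2 and Xbp1 were the 2 members with all compound values lower, where 6.22% of all genes had that pattern, and 0 members had all values higher (6.2% of all genes). The interaction, by which the compound hearts depart from an additive sum of both alterations on the log2 scale, was 0.57 (SE 0.20) for Herpud1, -0.55 (SE 0.29) for Creld2, -0.45 (SE 0.33) for Ddit3 and -0.36 (SE 0.19) for Xbp1, as description only. In the plot of fitted differences, Herpud1 is the member farthest from 0 in each comparison with nontransgenic hearts.

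**Figure D3:**
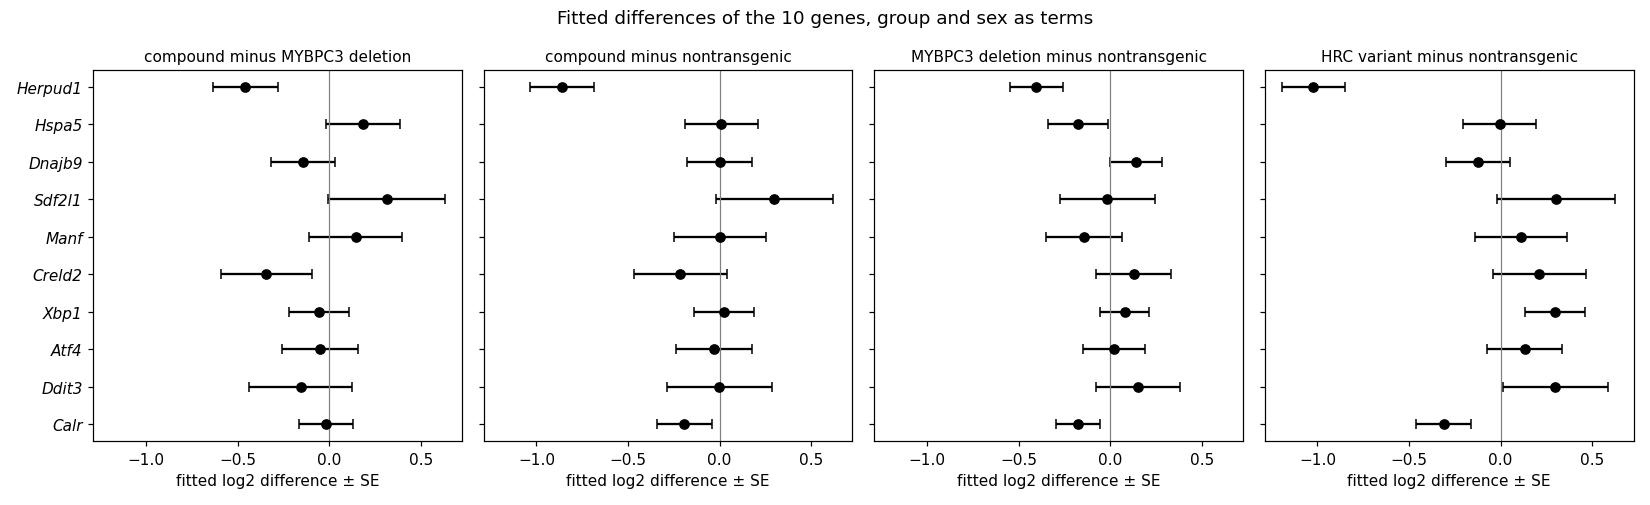
Fitted log2 difference (x axis, with SE as bars) of each of the 10 genes (rows), in a panel per comparison. Herpud1 stands at -0.46 between compound and MYBPC3 deletion hearts and at -1.02 between HRC variant and nontransgenic hearts, while the other 9 genes lie between -0.34 and 0.31 in the first of these and between -0.31 and 0.30 in the second.

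The wider pathway was read from 5 lists of 96 genes that exclude the 10 members, of which 91 were tested, with heat shock and clock genes as 2 further lists outside the pathway. The edgeR fit called 0 of the genes of these 7 lists between compound and MYBPC3 deletion hearts. Of the sensors and their activating proteases, 3 of 9 tested genes were higher by sign and 6 lower, with a median log2 difference of -0.06, while without the sex term 6 of the 9 were higher (median 0.08). Creb3l2, an ATF6-like factor, had the smallest p (-0.67, SE 0.33; edgeR adjusted p = 0.869). Of the chaperones and folding enzymes, 8 of 20 were higher and 12 lower (median -0.08), among them Pdia4, a disulfide isomerase (-0.29, SE 0.15), and Uggt1, which rechecks the folding of glycoproteins (0.20, SE 0.13). Of the genes for endoplasmic reticulum-associated degradation, the machinery to which Herpud1 belongs, 10 of 18 were higher and 8 lower (median 0.01), with Vcp, the ATPase that extracts the substrates, at 0.29 (SE 0.16) and Edem2, a mannosidase-like protein, at -0.36 (SE 0.21).

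Translocation and glycosylation genes gave 3 of 22 higher by sign and 19 lower, with a median of -0.09, or -0.18 without the sex term. Sec61b, a subunit of the translocon, had 7.08, 8.25 and 6.37 CPM in compound libraries, against 12.9, 22.3 and 9.67 CPM in MYBPC3 deletion libraries (log2 difference -0.57, SE 0.29; edgeR adjusted p = 0.869). The groups did not overlap for Sec61b, where 13.7% of all genes lay entirely lower in compound libraries. Fibroblast markers summed to 1388 to 1631 CPM in compound libraries and 2192 to 2372 CPM in MYBPC3 deletion libraries, also without overlap, and with no marker at 0 throughout. Their part in these list values was not tested.

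Targets of PERK and ATF4 gave 6 of 22 higher by sign and 16 lower, with a median log2 difference of -0.18, or -0.31 without the sex term. Ddit4, an inhibitor of mTORC1 signalling, had 17.1, 10.999 and 14.1 CPM in compound libraries, against 29.1, 20.2 and 26.0 CPM in MYBPC3 deletion libraries. Nupr1, a stress-induced chromatin protein, had 3.59, 4.32 and 4.59 CPM in compound libraries, against 20.3, 13.95 and 6.86 CPM in MYBPC3 deletion libraries. Neither gene's groups overlapped, where 13.7% of all genes lay entirely lower in compound libraries. The log2 differences were -1.16 (SE 0.25; edgeR unadjusted p = 0.000489, adjusted p = 0.862) for Ddit4 and -1.49 (SE 0.51; unadjusted p = 0.0129, adjusted p = 0.862) for Nupr1. These were the 2 of the list's 22 tested genes at an unadjusted p under 0.05, which 5.73% of all genes reached. Macrophage markers also lay apart, summing to 361 to 435 CPM in compound libraries and 535 to 723 CPM in MYBPC3 deletion libraries, with 0 of 9 higher by sign and a median log2 difference of -0.30. Fibroblast markers had 0 of 8 and atrial markers 0 of 9 higher by sign, with medians of -0.54 and -4.59. No marker of these lists was at 0 throughout, and their part in the values of this list was not tested. Atf4 itself stood at -0.05 and Ddit3 at -0.15.

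In HRC variant against nontransgenic hearts the list medians were -0.23 for the sensors (1 of 9 higher), -0.08 for the chaperones, 0.00 for degradation, 0.06 for translocation and -0.05 for PERK and ATF4 targets. Between MYBPC3 deletion and nontransgenic hearts the sensor median was -0.22 (3 of 9 higher), and -0.22 without the sex term. Between compound and nontransgenic hearts it was -0.23 (1 of 9 higher), and -0.11 without that term. These comparisons share the nontransgenic libraries. Without the sex term the medians for PERK and ATF4 targets, sensors and translocation were -0.18 (6 of 22 higher), -0.03 (3 of 9 higher) and -0.06. These values, with -0.00081 for the chaperones and -0.02 for degradation, are those between HRC variant and nontransgenic hearts. Single genes with larger differences there were Chac1, which breaks down glutathione and is a target of ATF4 (-1.58, SE 0.54), with 4.16, 2.56 and 0.610 CPM in HRC variant libraries, against 4.17, 4.98 and 8.23 CPM in nontransgenic libraries, and Tnfrsf10b, a death receptor induced by CHOP (1.01, SE 0.39). The groups of Chac1 did not overlap, by as little as 4.16 against 4.17 CPM, where 3.76% of all genes lay entirely lower. Those of Tnfrsf10b overlapped, with 3.96, 4.29 and 4.77 CPM in HRC variant libraries and 4.11, 2.16 and 2.05 CPM in nontransgenic libraries. Of the genes of the 7 lists, DESeq2 called Creld1, a membrane relative of Creld2, and Cry2, a clock repressor, between MYBPC3 deletion and nontransgenic hearts, where it called 0.963% of all genes. It called Ddit4 between compound and nontransgenic hearts (0.275% of all genes) and 0 between compound and MYBPC3 deletion hearts (0.0433%). The plot of the wider lists shows, for the comparisons it draws, the spread of single genes around the list medians.

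**Figure D4:**
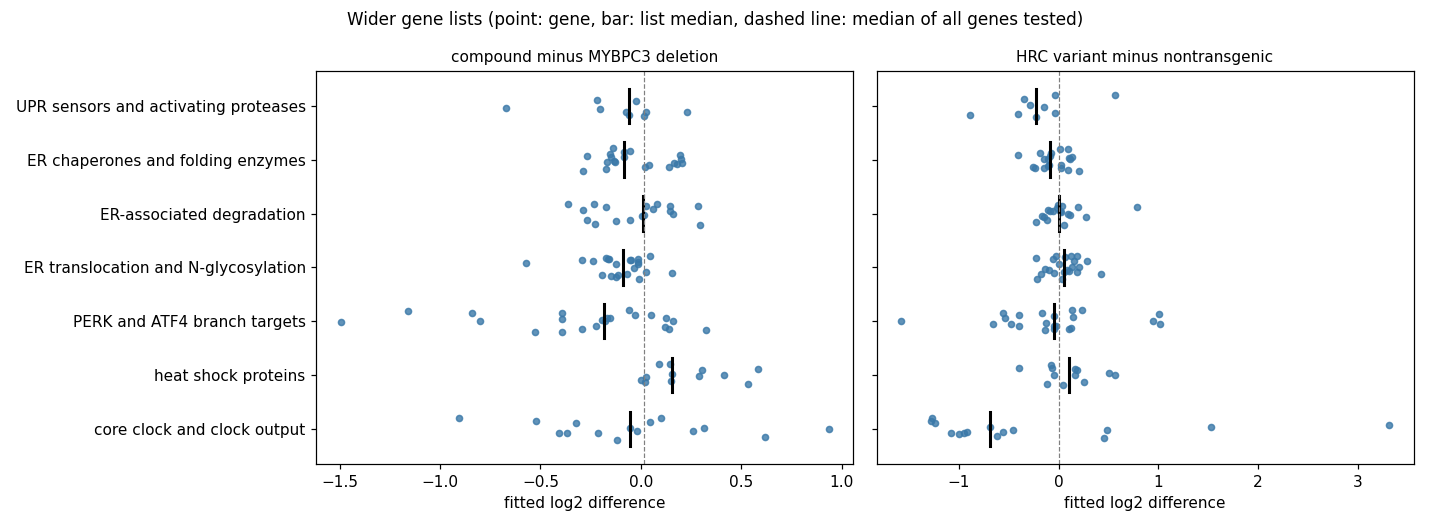
Fitted log2 difference (x axis) of each tested gene (points) in 7 gene lists (rows), in a panel per comparison; bars mark list medians and the dashed line the median of all genes tested. Between compound and MYBPC3 deletion hearts the medians lie between -0.18 (PERK and ATF4 targets) and 0.15 (heat shock proteins, -0.23 without the sex term), and between HRC variant and nontransgenic hearts the clock list stands at -0.69.

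The library-to-library pattern of Herpud1 was set beside those of 11862 other expressed genes, as a description over 12 libraries that share depth and groups. The 5 most similar genes were Adamtsl4, a matrix-associated protein (Pearson r 0.97), Pdxk, the kinase that activates vitamin B6 (0.94), Per2, a core clock repressor (0.91), Rev1, a translesion DNA polymerase (0.89), and Mknk2, a kinase of the cap-binding factor eIF4E (0.89). Per2 had 16.2, 15.3 and 34.7 CPM in compound libraries, 16.4, 14.5 and 29.2 CPM in MYBPC3 deletion libraries, 24.5, 13.7 and 15.2 CPM in HRC variant libraries and 18.3, 25.8 and 42.2 CPM in nontransgenic libraries. Like Herpud1, it was highest in nontransgenic replicate 3, compound replicate 3 and MYBPC3 deletion replicate 3. None of these 5 genes was a member, and the members themselves ranged from 0.41 (Calr) to -0.61 (Xbp1) in their correlation with Herpud1.

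**Figure D5:**
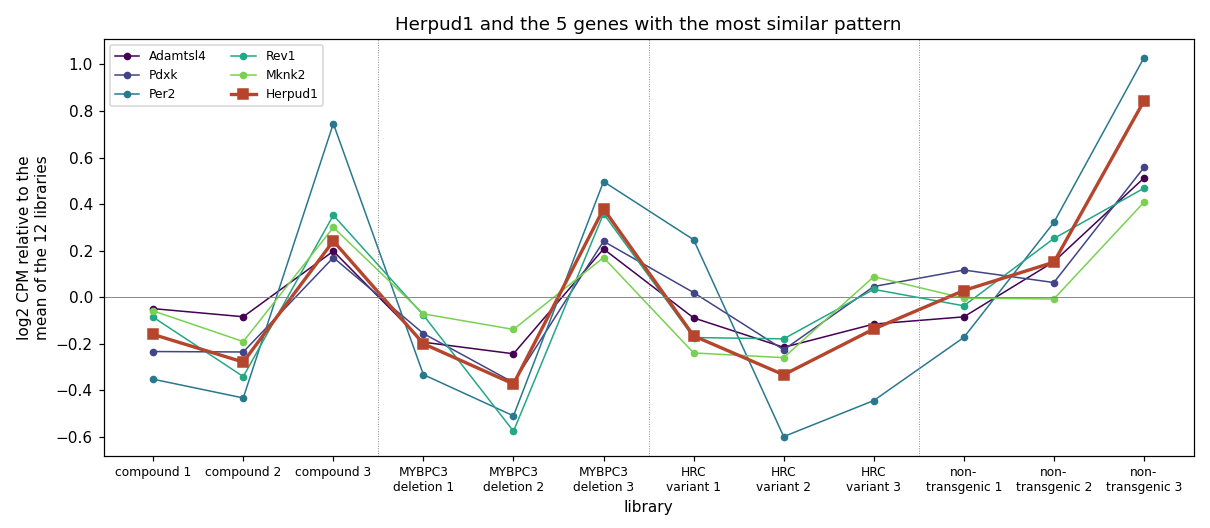
log2 CPM relative to the mean of the 12 libraries (y axis) of Herpud1 and the 5 genes with the most similar pattern, by library (x axis), with groups in the order compound, MYBPC3 deletion, HRC variant and nontransgenic. All 6 lines peak in nontransgenic replicate 3, where Herpud1 reached 589 and Per2 42.2 CPM.

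Clock genes were read as a list in the same libraries. The 15 genes gave a median log2 difference of -0.69 between HRC variant and nontransgenic hearts, with 4 higher by sign and 11 lower, and -0.47 without the sex term, given without a test. Dbp, an output gene of the clock, had 283, 84.7 and 92.7 CPM in HRC variant libraries, against 268, 258 and 300.4 CPM in nontransgenic libraries. Arntl, which encodes the activator BMAL1 and cycles opposite to Dbp, had 9.15, 22.5 and 15.8 CPM in HRC variant libraries, against 4.65, 3.70 and 1.75 CPM in nontransgenic libraries. The groups did not overlap for Arntl, where 4.18% of all genes lay entirely higher, and HRC variant replicates 2 and 3 stood apart for Dbp. Nr1d1, another clock gene, had 460, 303 and 284 CPM in HRC variant libraries, against 345, 282 and 247 CPM in nontransgenic libraries. Its groups overlapped, and unlike for Dbp the lowest of these values were nontransgenic. Between compound and MYBPC3 deletion hearts the clock list had a median of -0.05, or 0.14 without the sex term, and Per1 (-0.90, SE 0.38) and Cry1 (-0.52, SE 0.22), both repressors, had the smallest p (edgeR adjusted p = 0.862 for each). The part of these genes' pattern in the Herpud1 difference was not tested.

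Among the members, the closest patterns over the 12 libraries were those of Creld2 with Xbp1 (Pearson r 0.86), Creld2 with Manf (0.77) and Atf4 with Ddit3 (0.75), of 45 pairs. The most opposed were Dnajb9 and Atf4 (-0.75). These values describe libraries that share their groups and scaling, and carry no test.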

How the data were processed

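mRNA was sequenced from 12 mouse heart samples, 3 per group. The authors deposited 1 table with expected counts (estimated reads per gene, 94.3% of them whole with no tolerance) and TPM per library, per the file headers. Log2 fold changes, p-values and q-values that the authors computed between groups stand in the same deposited table. HISAT, Bowtie2 and DESeq2, without versions or roles, and the build GRCm38.p6 come from the submitters' processing notes. The sources used here give neither how reads were assigned to genes nor whether strand was used. Of 17380 lines, 1 without a gene was dropped, and 17267 symbols or identifiers matched a RefSeq table of the same build.

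Expected counts were rounded and fitted with edgeR 4.0.16 in R 4.3.3. Genes under a minimum count of 10 were filtered, leaving 13849 and removing 3530. After scaling by trimmed mean of M values, a quasi-likelihood model with group and sex was fitted over the 12 libraries (7 residual degrees of freedom, common biological coefficient of variation 21.5%). A call is a Benjamini-Hochberg adjusted p under 0.05 over all genes tested. The scripts were tested on simulated counts. Same-numbered libraries of different groups had correlated deviations over 0.1 in 5 of 18 pairs (range -0.24 to 0.316), so numbers were not used to pair. The members and lists were chosen with earlier results of these data known. The rule named all members, the 3 listed genes with the smallest p between compound and MYBPC3 deletion hearts, the 2 with the largest difference between HRC variant and nontransgenic hearts, and the 5 genes most like Herpud1 (mean log2 CPM of at least 1). Dbp and Nr1d1 were added after their values were seen. Alternatives were the sex term, females only, only the groups compared, another scaling, DESeq2 1.42.0, limma-voom (limma 3.58.1), other filters, a replicate block and leaving out each library, with list medians without the sex term added after the data were seen.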

Additional observations from a re-analysis of the deposited data

How the results depend on the processing

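The fits used 22 settings: the reported one, 9 others and 12 that left out 1 library each. In the comparisons of compound with MYBPC3 deletion hearts, of MYBPC3 deletion with nontransgenic hearts and of compound with nontransgenic hearts, 0 members were called under each setting. The count of all genes called, 0 as reported, was 57 between compound and MYBPC3 deletion hearts when only those groups were fitted and 6 by DESeq2, 1 and 92 between MYBPC3 deletion and nontransgenic hearts, and 15 and 38 between compound and nontransgenic hearts. Between HRC variant and nontransgenic hearts DESeq2 called 25. With 1 library left out at a time it was 0 to 3 between compound and nontransgenic hearts, with 3 without HRC variant replicate 3 and 1 without nontransgenic replicate 1, and 0 to 8 between HRC variant and nontransgenic hearts, with 8 without HRC variant replicate 1 and 1 without compound replicate 3. The replicate block, with numbers that are not known to pair the samples, called 0 genes in each comparison and changed no call of a member. Herpud1 ran over the settings from -0.63 to -0.02 between compound and MYBPC3 deletion hearts, where the value without the sex term, -0.02 (SE 0.24), was within its error of 0, -1.03 to -0.44 between compound and nontransgenic hearts and -1.08 to -0.60 between HRC variant and nontransgenic hearts. Between compound and HRC variant hearts it ran from -0.0073 to 0.28, and its sign turned without compound replicate 3. The medians of the gene lists without the sex term were an alternative chosen after seeing the data. The replicate block gave -0.28, -0.68 and -0.83 for Herpud1. Uncalled log2 differences near 0 changed sign elsewhere, and the cause was not tested. Between compound and nontransgenic hearts, DESeq2 gave 0.0029 for Dnajb9 and 0.00012 for Ddit3. DESeq2's size factors gave 0.0030 for Dnajb9 and 0.00011 for Ddit3. Females alone gave -0.026 for Hspa5, -0.042 for Manf and 0.088 for Ddit3. limma-voom gave 0.00089 for Dnajb9 and -0.0013 for Manf. A minimum count of 20 gave 0.0046 for Dnajb9 and 0.0026 for Ddit3. No filter gave 0.0040 for Dnajb9 and 0.00064 for Ddit3. No sex term gave 0.15 for Dnajb9, -0.20 for Manf and -0.099 for Xbp1. Only the groups compared gave -0.030 for Hspa5, -0.046 for Manf and 0.085 for Ddit3. The replicate block gave -0.00049 for Hspa5, 0.075 for Dnajb9, -0.024 for Manf, -0.13 for Xbp1 and 0.24 for Ddit3. With 1 library left out the values ran from -0.11 to 0.072 for Atf4, -0.16 to 0.22 for Ddit3, -0.046 to 0.047 for Dnajb9, -0.090 to 0.10 for Hspa5, -0.19 to 0.14 for Manf and -0.091 to 0.16 for Xbp1. Between compound and MYBPC3 deletion hearts, no sex term gave 0.012 for Dnajb9, -0.060 for Manf and 0.025 for Calr. The replicate block gave 0.097 for Ddit3. With 1 library left out the values ran from -0.14 to 0.034 for Atf4, -0.054 to 0.061 for Calr, -0.31 to 0.077 for Ddit3, -0.041 to 0.28 for Manf and -0.16 to 0.083 for Xbp1. Between MYBPC3 deletion and nontransgenic hearts, females alone gave 0.096 for Sdf2l1 and -0.054 for Atf4. With 1 library left out the values ran from -0.15 to 0.18 for Atf4, -0.028 to 0.33 for Creld2, -0.37 to 0.11 for Manf and -0.060 to 0.045 for Sdf2l1.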

Other observations

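The heat shock proteins, a list of cytosolic chaperones with the mitochondrial Hspd1 and Hspe1, are known as targets of HSF1 and were 12 genes, all tested and not called by edgeR. Between compound and MYBPC3 deletion hearts 11 of the 12 were higher by sign, with a median log2 difference of 0.15, against 0.01 over all genes tested. Without the sex term 4 of the 12 were higher, with a median of -0.23, so the direction rests on that term. The summed CPM of the list was 4752 to 4962 in compound libraries and 4748 to 5458 CPM in MYBPC3 deletion libraries, which overlapped. The mean of this sum was lower in compound libraries, at 4878 against 5083 CPM. Between MYBPC3 deletion and nontransgenic hearts 11 of the 12 were lower by sign, with a median of -0.28, or -0.29 without the sex term. Cardiomyocyte markers had 10 of 10 higher by sign between compound and MYBPC3 deletion hearts (median 0.21). Without the sex term 6 of the 10 were higher (median 0.11). Between MYBPC3 deletion and nontransgenic hearts 7 of 10 were lower (median -0.17, or -0.18 without the sex term). The part of these markers in the heat shock values was not tested. The comparisons share the MYBPC3 deletion libraries. Hsph1, a co-chaperone of HSP70, had 41.2, 51.4 and 50.7 CPM in compound libraries, 40.4, 30.4 and 35.1 CPM in MYBPC3 deletion libraries, 43.3, 77.3 and 74.0 CPM in HRC variant libraries and 89.9, 50.6 and 51.7 CPM in nontransgenic libraries. Its compound values lay above its deletion values (log2 difference 0.58, SE 0.30; edgeR adjusted p = 0.877), a pattern that 11.5% of all genes showed. The 12 genes summed to 8060 CPM in nontransgenic replicate 1, a male, against 4748 to 6303 CPM in the other 11 libraries. In CPM it was also the library with the highest Manf, Creld2, Atf4, Ddit3 and Calr. In TPM other libraries were highest for each of these members. The sex term was estimated partly from nontransgenic replicate 1.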
